A study of Mus musculus with 241 samples.

Results

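A small group of cells with granulocyte transcripts was present among the earliest T-cell precursors sorted from mouse thymus. These granulocyte-like cells were chosen in both droplet single-cell (10x) libraries as cells holding 5 or more UMIs of Elane, Prtn3 and Ms4a3 together. A UMI is a molecular tag, so that each one stands for 1 captured RNA molecule. Barcodes entered with 1000 or more detected genes and less than 10% of UMIs from mitochondrial genes. In replicate 1 the rule chose 44 of 4878 cells, or 0.902% (Clopper-Pearson 95% interval 0.656% to 1.21%). In replicate 2 it chose 31 of 8434 cells, or 0.368% (0.250% to 0.521%), which makes 75 of 13312 cells in all. With 1 group of 2 libraries the difference between these shares was not tested. Intervals here and in the following cover counting error only.

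The 3 rule genes are genes of early granulocyte precursors. Elane encodes neutrophil elastase and Prtn3 encodes proteinase 3, serine proteases that neutrophils store in their primary (azurophil) granules. Ms4a3 encodes a membrane protein of granulocyte and monocyte progenitors. Primary granules are filled early, at the promyelocyte stage, and the proteins of secondary and tertiary granules are made later. Early thymic progenitors are known to keep some ability to form myeloid cells, which is lost as they commit to the T lineage.

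The study profiled the first stages of T-cell development in the thymus. The 10x cells and the single cells captured on the C1 microfluidic chip came from wild-type C57BL/6 mice and were sorted by Kit and CD44, a gate that holds early T-cell progenitors (ETPs) and the DN2a stage that follows them. The 12 bulk libraries came from C57BL/6 mice that carry the Bcl11b yfp/yfp reporter, in which a fluorescent protein marks Bcl11b, a regulator of T-lineage commitment, and the cells were lineage-negative, 7AAD-, CD44+ and Kit+. The bulk groups were Bcl11b- DN2a (CD25+, reporter-negative, 3 libraries), Bcl11b+ DN2a (CD25+, reporter-positive, 3 libraries), Flt3- ETP (CD25-, 2 libraries), Flt3+ ETP (CD25-, 2 libraries) and total ETP (CD25-, not divided by Flt3, 2 libraries). No treatment or age is given. Nothing says that replicate libraries came from separate animals, so p-values measure only the spread between these libraries.

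The granulocyte-like cells were deeper than the rest. Their median was 14582.5 UMIs and 3293.5 genes in replicate 1, against 8441.5 UMIs and 2340.5 genes in the other cells. In replicate 2 it was 9731 UMIs and 2593 genes, against 6129 UMIs and 1976 genes. No doublet caller was run, and 13 and 7 of the chosen cells lay among the 2.5% of cells with the most UMIs in their library. The libraries shared 57 barcodes, of which 1 was that of a chosen cell. Levels below are CPM, the UMIs of a gene per 1e6 UMIs of a group of cells, and pairs of values are for replicates 1 and 2 in this order.

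The label also names 4 markers that the rule did not use, Ctsg, Ly6c2, Mpo and Cebpa. These were chosen with earlier results of these data known, so their detection describes the cells and does not test the label. At least 3 of them were detected in 31 of 44 cells of replicate 1 and in 29 of 31 cells of replicate 2. In the other, shallower cells Mpo was detected in 44.4% and 40.2% and Ctsg in 6.21% and 5.55%. Ly6c2 was detected there in 1.08% and 0.762% and Cebpa in 0.476% and 0.274%. In the cells of replicate 1 with 5 to 15 rule UMIs, 9 of 21 held at least 3 of these markers and 2 held none, so that the name rests on few genes there. Of these 2 cells, 1 held 68 UMIs of Pf4, listed here as a megakaryocyte gene, 8 of Gata2 and none of Elane. The name is not borne out for that cell, which stays among the 44 by the rule. Results are therefore also given by the number of rule UMIs.

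Elane and Prtn3 are neighbours in the genome. Prtn3 lies at chr10:79879667-79883174 and Elane at chr10:79886312-79888216 (GRCm38.p6, mm10), with 3137 bases between them, and Ms4a3 lies at chr19:11629499-11640851. Cfd, which encodes complement factor D and lies 2636 bases from Elane, had no UMI in the chosen cells, which allows at most 4.54 and 9.47 CPM (3 counts). Cfd had no UMI in the other cells either. Plppr3, 4708 bases from Prtn3 on the other side, stood at 54.4 and 78.9 CPM in the granulocyte-like cells, against 6.35 and 7.51 CPM in the others. Its span overlaps that of Ptbp1, so reads of these genes may not be told apart.

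The promoters of 4 granule genes are shown because these genes were high together in the chosen cells and each holds a core of the regulator PU.1, encoded by Spi1. Each line holds the 250 bases before the RefSeq start site (GRCm38.p6), 5′ to 3′ on the gene's strand, and capitals mark GAGGAA. The windows are chr10:79886062-79886311 (plus strand) for Elane, chr10:79879417-79879666 (plus strand) for Prtn3, chr14:56102575-56102824 (minus strand) for Ctsg and chr11:87793534-87793783 (plus strand) for Mpo.
Elane: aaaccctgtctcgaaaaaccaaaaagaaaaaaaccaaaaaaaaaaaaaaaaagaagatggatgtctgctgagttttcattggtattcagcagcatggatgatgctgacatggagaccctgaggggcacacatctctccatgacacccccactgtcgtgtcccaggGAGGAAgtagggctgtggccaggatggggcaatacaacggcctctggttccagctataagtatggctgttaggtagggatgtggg
Prtn3: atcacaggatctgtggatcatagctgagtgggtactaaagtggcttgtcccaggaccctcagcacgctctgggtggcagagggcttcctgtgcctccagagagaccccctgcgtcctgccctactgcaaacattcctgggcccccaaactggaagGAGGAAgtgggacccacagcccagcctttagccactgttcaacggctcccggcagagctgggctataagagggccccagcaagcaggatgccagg
Ctsg: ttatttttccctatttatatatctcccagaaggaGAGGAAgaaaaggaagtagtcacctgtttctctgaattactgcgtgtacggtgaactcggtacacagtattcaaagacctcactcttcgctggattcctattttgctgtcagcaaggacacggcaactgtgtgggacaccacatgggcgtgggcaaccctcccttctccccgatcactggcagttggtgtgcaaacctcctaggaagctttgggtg
Mpo: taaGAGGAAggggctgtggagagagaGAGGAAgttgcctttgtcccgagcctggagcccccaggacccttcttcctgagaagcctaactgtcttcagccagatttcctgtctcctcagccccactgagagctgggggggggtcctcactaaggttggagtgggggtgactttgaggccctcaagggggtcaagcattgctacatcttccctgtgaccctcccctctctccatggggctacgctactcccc
The match begins 85 bases before the start site in Elane and 95 bases before it in Prtn3. In Ctsg and Mpo the matches lie farther from the start site, and Mpo holds 2 of them, the first at 247 bases. Searched on both strands in windows of 300 bases (250 before and 50 after the start), GAGGAA was found in 28.3% of 32851 RefSeq windows. Counted by gene, 3 of 3 rule genes held it, as did 12 of the 22 leading genes with a window (54.5%) and 5 of the 10 trailing genes with a window (50%), the genes lowest in the chosen cells relative to the others, against 31.3% of all genes. Counted by window, it was in 51.9% of the 27 leading windows and 27.3% of the 22 trailing windows. The 10 trailing genes share 22 windows, which gives each gene more chances of a match. The C/EBP-type letters TTGCNNAA were found in 10.8% of all windows, in Ms4a3 and in 2 of the 22 leading genes, Anxa1 and Fcgr3. A match describes letters and not a bound site.

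The levels of the rule genes are a description, since they chose the cells. Prtn3 was detected in all 75 cells, Elane in 26 of 44 and 24 of 31, and Ms4a3 in 30 and 25. All 3 genes were detected together in 24 and 23 cells, while 12 and 5 cells were chosen through Prtn3 alone. The median cell held 33.5 and 40 rule UMIs, and the highest held 339 and 268. Just inside the threshold, the 10 and 2 cells with 5 to 7 rule UMIs held 58 and 9 Prtn3 UMIs and 1 Elane UMI in each library. Just outside it, the 5 and 2 cells with 3 or 4 rule UMIs held 16 and 6 Prtn3 UMIs and no Elane UMI.

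**Figure D1:**
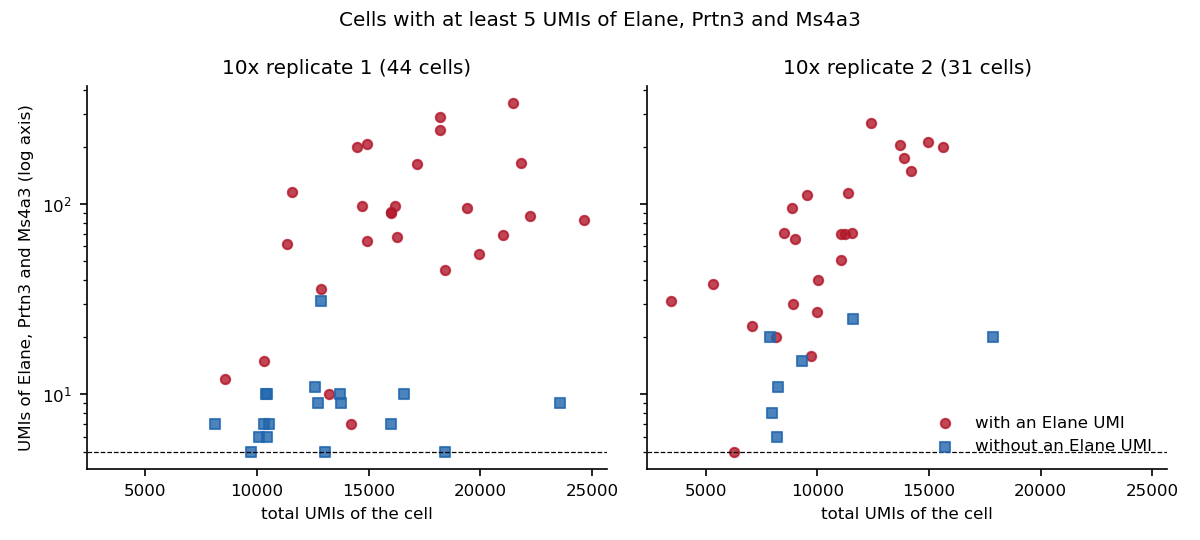
UMIs of Elane, Prtn3 and Ms4a3 (log axis) against total UMIs for each chosen cell, with 1 panel per 10x library. Colour and shape mark whether the cell held an Elane UMI, and the dashed line is the threshold of 5. The cells reach 339 rule UMIs in replicate 1 and 268 in replicate 2, and most cells without Elane lie below 16.

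Prtn3 stood at 2487 and 3850.2 CPM in the granulocyte-like cells, against 5.41 and 3.52 CPM in the others. Elane stood at 1565 and 2638 CPM, against 0.234 and 0.332 CPM, and Ms4a3 at 439.9 and 669 CPM, against 0.281 and 0.313 CPM. The chosen cells thus held 87.7% and 86.5% of the Prtn3 UMIs of all kept cells, 99.04% and 97.9% of the Elane UMIs and 96.04% and 92.6% of the Ms4a3 UMIs. The ratio of Prtn3 to Elane UMIs was 1.59 and 1.46 in the granulocyte-like cells, against 23.1 and 10.6 in the other cells, which by the rule held fewer than 5 rule UMIs each.

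Ctsg, Ly6c2, Mpo, Ccl9 and Cebpa ranked first among the genes that the rule did not use. Of 7285 genes with at least 10 CPM in the chosen or the other cells of each library, 26 (0.357%) were at least 4-fold higher in the granulocyte-like cells of both libraries and 120 (1.65%) at least 2-fold higher. Folds are of CPM with 10 CPM added. They describe cells chosen on the same counts, so nothing is read from these shares and no test applies. The 30 leading genes are those with the highest ratio in the library where it was lower, among genes with a UMI in at least 25% of the chosen cells of each library. Of these 30, 22 were at least 4-fold higher in both libraries.

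Ctsg encodes cathepsin G, another protease of primary granules. It stood at 995 CPM (920.2 to 1074) in replicate 1 and 1392 CPM (1265 to 1528) in replicate 2 (exact Poisson 95% intervals), against 9.25 and 10.7 CPM in the other cells. Mpo, which encodes the granule enzyme myeloperoxidase, stood at 1566 and 2187 CPM in the granulocyte-like cells, against 100.3 and 110.8 CPM in the others. Mpo was less restricted than Ctsg, and the chosen cells held 19.5% and 10.3% of its UMIs and 62.5% and 43.1% of those of Ctsg.

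Mpo was uneven among the other cells. With every cell thinned to 4000 UMIs, a Mpo UMI was found in 93.2% and 100% of the granulocyte-like cells, in 38.3% and 39.4% of cells with Flt3 but neither Il2ra nor a rule UMI, and in 6.76% and 7.99% of other cells with Bcl11b. Without thinning, 95.5% and 100% of the granulocyte-like cells and 44.4% and 40.2% of all others held one. Thinning left out 0 and 1 of the granulocyte-like cells and 250 and 1455 of the others. Ctsg was found, after thinning, in 70.5% (31 of 44) and 27 of 30 of the granulocyte-like cells, in 1.48% and 3.71% of the Flt3 cells and in 1.01% and 1.49% of the Bcl11b cells.

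Ly6c2, which encodes the myeloid surface antigen Ly6C, stood at 336 and 836 CPM in the granulocyte-like cells, against 1.34 and 1.23 CPM in the others. It was detected in 45.5% and 51.6% of the granulocyte-like cells. Its sequence is close to that of Ly6c1, so the split of reads between them is uncertain. Ccl9, encoding a chemokine of myeloid cells, stood at 246 and 357 CPM, against 13.4 and 12.8 CPM, and Fcgr3, encoding a receptor for antibodies, at 99.8 and 107.3 CPM, against 7.54 and 6.89 CPM.

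Several leading genes were at or near 0 outside the granulocyte-like cells. Igsf6, an immunoglobulin-family gene that lies within Mettl9, stood at 65.01 and 94.7 CPM in the granulocyte-like cells, against 0 and 0.0184 CPM in the others. Trem3, a receptor gene of myeloid cells, stood at 48.4 and 69.4 CPM, against 0 and 0.0553 CPM. Hp, which encodes haptoglobin, a hemoglobin-binding protein that neutrophils also store in granules, stood at 46.9 and 69.4 CPM, against 0.0234 and 0 CPM. Hk3, encoding a hexokinase of myeloid cells, stood at 33.3 and 28.4 CPM, against 0.0937 and 0.0553 CPM. Anxa3, an annexin gene, stood at 74.1 and 135.7 CPM, against 0.398 and 0.571 CPM, and the chosen cells held 74.2% and 58.1% of its UMIs.

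**Figure D2:**
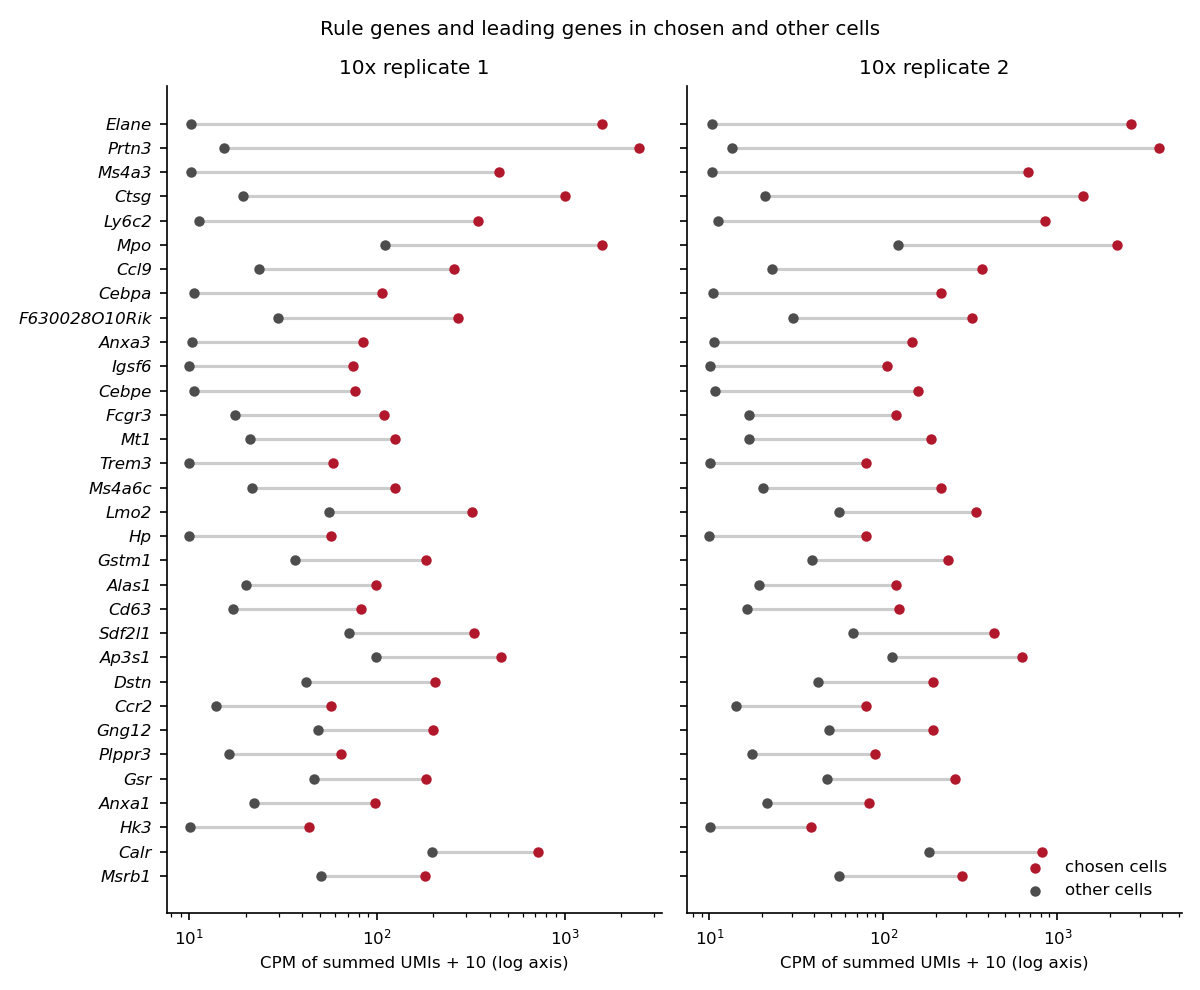
CPM of summed UMIs with 10 added (log axis) for the 3 rule genes and 29 of the 30 leading genes in the chosen cells and in the other cells, with 1 panel per 10x library. All leading genes shown are at least 2-fold higher in the chosen cells of both libraries.

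Regulators of granulocytes were higher in part. Counts of list members are over all listed genes, and a gene counts as higher or lower only with at least 10 CPM in the chosen or the other cells of each library. A gene that reached 10 CPM in the chosen cells alone was bound to be higher there, so the counts describe the cells and support nothing. Of 14 listed regulators, 13 had a row in the 10x tables, and 4 were at least 2-fold higher in both libraries, Cebpa, Cebpb, Cebpe and Spi1, and none was lower. Cebpa, which encodes the C/EBP factor needed to begin granulocyte development, stood at 96.8 and 205.1 CPM in the granulocyte-like cells, against 0.656 and 0.479 CPM in the others. Cebpe, which encodes the C/EBP factor of later granule genes, stood at 66.5 and 148.3 CPM, against 0.656 and 0.792 CPM. Spi1 differed in degree only, at 236 and 281 CPM, against 99.6 and 102.7 CPM. Gfi1, encoding a repressor that neutrophils need, stood at 24.2 and 47.3 CPM, against 15.7 and 18.8 CPM.

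Genes of protein folding in the endoplasmic reticulum were higher as well. In the list of granule transport and secretory genes 7 of 14 were at least 2-fold higher in both libraries and none was lower, namely Calr, Sdf2l1, Hspa5, Hsp90b1, Pdia6, Manf and Creld2. Calr, encoding the chaperone calreticulin, stood at 714 and 808 CPM in the granulocyte-like cells, against 187.1 and 172.9 CPM in the others, and Sdf2l1 at 321 and 423 CPM, against 60.6 and 56.8 CPM. Of 12 listed heme and oxidase genes only Alas1 was 2-fold higher in both libraries, which encodes the first enzyme of heme synthesis, at 89.2 and 107.3 CPM, against 9.98 and 9.15 CPM.

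Granule genes were counted by the stage at which they are known to be made. Of 14 primary granule genes, 8 were at least 2-fold higher and none lower, and 2 of the 8 are rule genes. Lyz2, encoding lysozyme, stood at 214.7 and 394 CPM in the granulocyte-like cells, against 54.5 and 62.1 CPM in the others, while Serpinb1a, encoding an inhibitor of granule proteases, stood at 108.9 and 167.3 CPM, against 120.5 and 116.5 CPM. The list of 13 secondary and tertiary granule genes summed to 74.1 and 129.4 CPM in the granulocyte-like cells, against 6.11 and 6.50 CPM in the others, and Hp, whose levels are given above, was its 1 member at least 2-fold higher in both libraries. Of the 13 genes, 9 had no UMI in the chosen cells of either library, namely Ltf, Camp, Ngp, Chil3, Cd177, Mmp8, Mmp9, Itgb2l and Orm1. That allows at most 4.54 and 9.47 CPM of each. Lcn2 had 1 UMI, and Cybb, encoding a subunit of the phagocyte oxidase, had 5 and 8.

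Of 14 listed late neutrophil genes, 13 had a row in the 10x tables, and 3 were at least 2-fold higher in both libraries, Cxcr2, Csf3r and Fcgr3, and none was lower. The list summed to 188.98 and 388 CPM in the granulocyte-like cells, against 43.9 and 47.6 CPM in the others. Ly6g, Retnlg, Stfa2 and Fpr1 had no UMI in the chosen cells. Csf3r, which encodes the receptor for granulocyte colony-stimulating factor, stood at 28.7 and 31.6 CPM in the granulocyte-like cells, against 1.15 and 1.16 CPM in the others. S100a8 had 6 UMIs in 2 cells of replicate 1 and 61 UMIs in 1 cell of replicate 2, so its level there describes that cell, which held 268 rule UMIs.

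**Figure D3:**
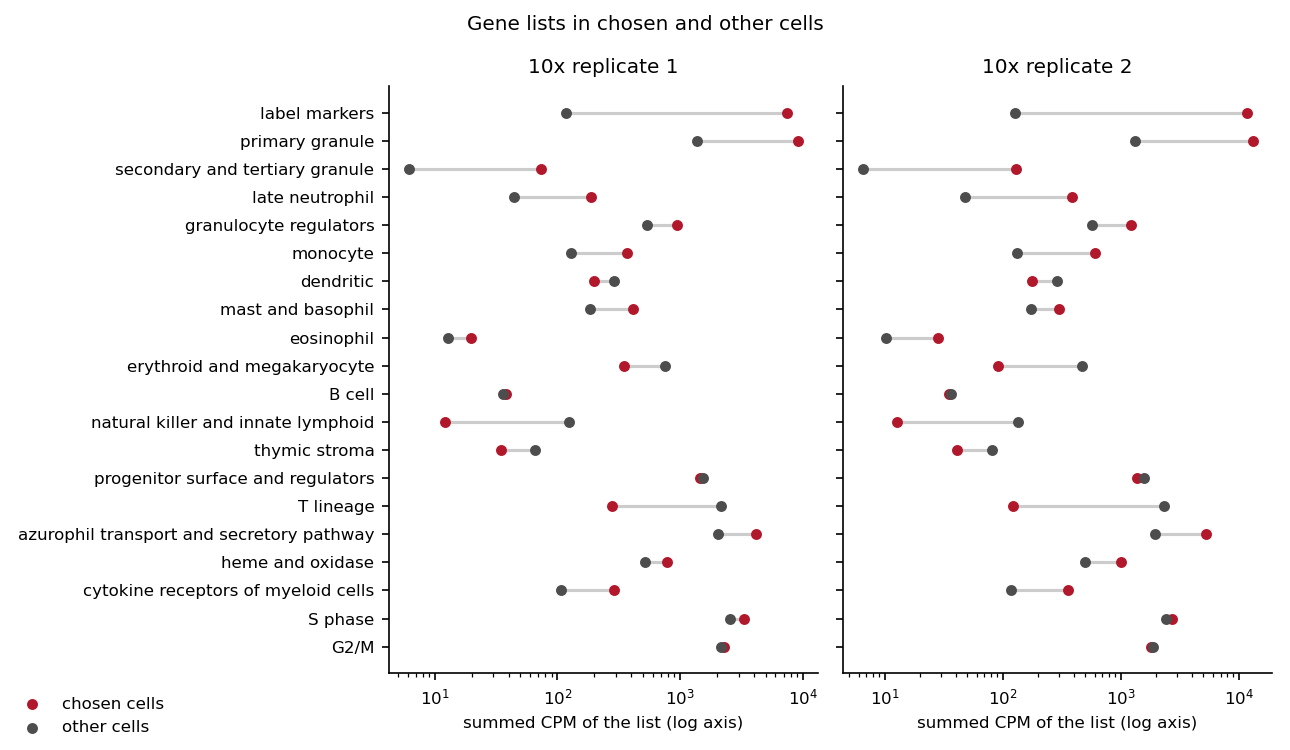
Summed CPM of each gene list (log axis) in the chosen cells and in the other cells, with 1 panel per 10x library. Primary granule genes sum to 9219 and 13065 CPM in the chosen cells, and T-lineage genes are lower there than in the other cells.

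Genes of other myeloid cells were detected in the same group. Of 14 listed monocyte genes, 6 were at least 2-fold higher, namely Csf1r, Irf8, Ly86, F13a1, Ccr2 and Ms4a6c, while Cd14 and Lgmn had no UMI in the chosen cells. The list summed to 372 and 609 CPM in the granulocyte-like cells, against 128.3 and 133.1 CPM in the others. Irf8, a regulator of monocytes and dendritic cells, stood at 58.96 and 167.3 CPM, against 15.9 and 16.5 CPM, and Ms4a6c at 114.9 and 205.1 CPM, against 11.6 and 10.3 CPM.

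Of 12 listed mast cell and basophil genes, 3 were at least 2-fold higher, namely Gata2, Hdc and Mcpt8. Gata2, a regulator of progenitors and mast cells, stood at 52.9 and 22.1 CPM in the granulocyte-like cells, against 1.71 and 3.13 CPM in the others, and Hdc, encoding the enzyme that makes histamine, at 31.7 and 28.4 CPM, against 0.234 and 0.350 CPM. Prss34, Fcer1a, Tpsb2, Cma1 and Mcpt4 had no UMI in the chosen cells. Cpa3, encoding a mast cell carboxypeptidase, was shared with the rest of the gate, at 286 and 160.95 CPM, against 177.7 and 158.5 CPM. No gene of the eosinophil, dendritic or B-cell lists was 2-fold higher in both libraries, and Hbb-bt, a beta-globin gene, was lower, at 131.5 and 66.3 CPM, against 611 and 345 CPM. Of 10 listed receptor genes for myeloid cytokines, 3 were higher, Csf2rb, Csf3r and Csf1r.

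T-lineage genes were mostly lower. Of the 7285 genes, 29 (0.398%) were at least 4-fold lower in the granulocyte-like cells of both libraries, and 2.64% at least 2-fold lower. Of 24 listed T-lineage genes 17 were at least 2-fold lower and none was higher, and the list summed to 277 and 123.1 CPM in the granulocyte-like cells, against 2142 and 2319 CPM in the others. Bcl11b stood at 3.02 and 3.16 CPM, against 116.3 and 132.1 CPM, Tcf7, which encodes the factor TCF1, at 18.1 and 6.31 CPM, against 192.2 and 215.2 CPM, and Il2ra, which encodes CD25, at 37.8 and 0 CPM, against 224.9 and 208.8 CPM. Cd3e, Ptcra and Rag1, genes of the T-cell receptor and its assembly, had no UMI in the chosen cells. Set against cells with Flt3 but no Il2ra in place of all others, 6 T-lineage genes were at least 2-fold lower, and the mean log2 ratio of Bcl11b was 0.11.

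The 15 trailing genes, ranked in the opposite way, were all at least 4-fold lower in both libraries. Ly6d, an early lymphoid surface gene, stood at 6.05 and 12.6 CPM in the granulocyte-like cells, against 339 and 354 CPM in the others, and Dntt, encoding the enzyme that adds bases at receptor gene joints, at 21.2 and 3.16 CPM, against 286 and 358 CPM. Crip1, encoding a LIM-domain protein, was lower yet still abundant, at 641 and 479.7 CPM, against 3887 and 3922 CPM.

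T-lineage UMIs were unevenly spread over the granulocyte-like cells. The median cell held 2 and 1 UMIs of this list, against 13 and 10 in the other cells, and 7 of 44 and 10 of 31 cells held none. In replicate 1, 2 cells held 42 and 33 such UMIs at depths of 24614 and 23571 UMIs, and the first of them also held 35 Elane and 39 Prtn3 UMIs. Whether these were droplets with more than 1 cell was not tested.

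Gate genes were close to the level of the rest of the gate. Kit stood at 90.7 CPM (69.2 to 116.8) in replicate 1 and 107.3 CPM (74.3 to 149.9) in replicate 2, against 95.3 and 102.6 CPM in the other cells. Cd44 stood at 52.9 and 85.2 CPM, against 56.4 and 58.2 CPM, and Cd34, a surface gene of progenitors, at 161.8 and 176.7 CPM, against 160.3 and 181.2 CPM. Flt3 had 2 UMIs in each library, which is 3.02 and 6.31 CPM, against 15.3 and 15.7 CPM.

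Of 18 listed progenitor genes only Lmo2 was at least 2-fold higher, and Ly6a and Mycn were lower. Lmo2, which encodes an adaptor of transcription factors in blood progenitors, stood at 311 and 331 CPM in the granulocyte-like cells, against 45.9 and 45.3 CPM in the others. Cells with Flt3 but no Il2ra held 104.8 and 99.04 CPM of it and cells with Bcl11b 6.01 and 7.85 CPM. No S-phase or G2/M gene was 2-fold higher or lower in both libraries.

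The granulocyte-like cells differed among themselves along their rule UMIs. They were divided at 5 to 15 (21 and 5 cells), 16 to 99 (15 and 18 cells) and 100 or more (8 and 8 cells), ranges set after the values had been seen. Median depth over the ranges was 12607, 16185 and 17668.5 UMIs in replicate 1 and 8193, 9370.5 and 13802.5 UMIs in replicate 2. The ranges therefore share depth as well as library, and the Spearman correlation of rule UMIs with total UMIs across cells was 0.53 and 0.63.

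Cebpe and Hp were detected in the upper ranges. From the lowest range to the highest, Cebpe stood at 0, 23.4 and 276 CPM in replicate 1 and 0, 146.01 and 208.1 CPM in replicate 2. Hp stood at 0, 38.9 and 152.4 CPM in replicate 1 and 0, 75.9 and 85.1 CPM in replicate 2. Neither had a UMI in the 21 and 5 cells of the lowest range. The upper end of the exact Poisson interval for such a 0 is 13.8 CPM in replicate 1 and 92.3 CPM in replicate 2. The latter lies above the Hp levels of the higher ranges of replicate 2, so the 0 cannot place Hp lower there. It lies below the Cebpe levels of those ranges. Ly6c2 stood at 3.75, 417 and 827 CPM in replicate 1 and 0, 304 and 2015 CPM in replicate 2. In replicate 1, 1 cell of the middle range held 30.2% of the Ly6c2 UMIs of all chosen cells. In replicate 2, 1 cell of the highest range held 25.3%. These cells held 50 and 37 UMIs of the monocyte list, the most of any chosen cell in their library. The Ly6c2 levels of these ranges thus rest in part on 1 cell each. The median cell held 0, 2 and 16 Ly6c2 UMIs in replicate 1 and 0, 0.5 and 22.5 in replicate 2. Sdf2l1 stood at 101.2, 374 and 646 CPM in replicate 1 and 150.2, 333 and 672 CPM in replicate 2. Both genes were thus higher where rule UMIs were higher. Cebpa was already present in the lowest range, at 78.7, 93.5 and 137.9 CPM in replicate 1 and 150.2, 216.1 and 208.1 CPM in replicate 2.

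By level, Cd34, Mef2c, Bcl11a and Meis1 ran the other way in both libraries, while Kit, Cd44, Hoxa9 and Lmo2 did not. In replicate 2 the order rests on few UMIs for Bcl11a (2, 6 and 3) and Meis1 (1, 2 and 0). Their exact Poisson intervals overlap across the ranges, so replicate 2 cannot settle the order of these genes. The intervals of Cd34 in the lowest and highest ranges of replicate 2 overlap too. Those of Mef2c do not, though they rest on only 8 and 3 UMIs. In the lowest range of replicate 1, 1 cell held 22 of the 60 Mef2c UMIs. The intervals do not cover such spread between cells. Cd34 stood at 269.8, 105.2 and 58.1 CPM in replicate 1 and 225.3, 198.6 and 122.99 CPM in replicate 2. Mef2c, a regulator of lymphoid and myeloid progenitors, stood at 224.8, 144.1 and 36.3 CPM in replicate 1 and 200.2, 105.1 and 28.4 CPM in replicate 2, and Bcl11a, a regulator of lymphoid progenitors, at 138.6, 35.1 and 7.26 CPM in replicate 1 and 50.1, 35.04 and 28.4 CPM in replicate 2. Lmo2 had no common order in the libraries, at 289, 315 and 348 CPM in replicate 1 and 576, 309.6 and 274 CPM in replicate 2. Kit had none either, at 67.4, 112.9 and 94.3 CPM in replicate 1 and 150.2, 110.97 and 85.1 CPM in replicate 2, nor had Cd44, at 41.2, 54.5 and 72.6 CPM in replicate 1 and 175.2, 81.8 and 56.8 CPM in replicate 2. Hoxa9, a homeobox gene of progenitors, stood at 37.5, 46.7 and 29.03 CPM in replicate 1 and 0, 35.04 and 0 CPM in replicate 2.

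**Figure D4:**
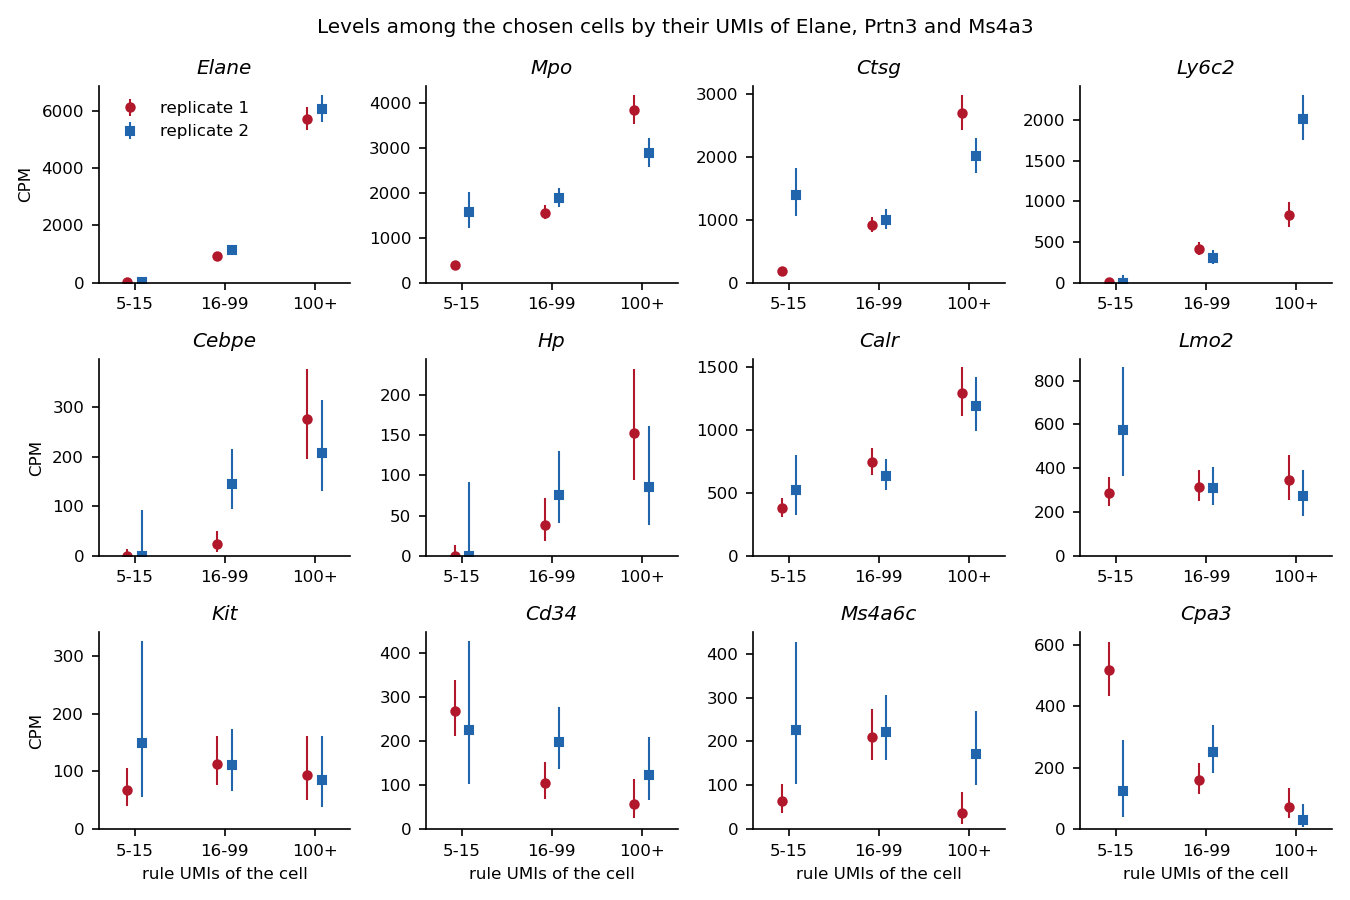
CPM of 12 genes in chosen cells with 5 to 15, 16 to 99 and 100 or more rule UMIs, for each 10x library, with exact Poisson 95% intervals as bars. Cebpe and Hp are at 0 in the lowest range of both libraries, and the level of Cd34 is highest there. In replicate 2 the intervals of the lowest and highest ranges overlap for Hp and for Cd34.

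The lowest range differed between the libraries. Gata2 was found in 12 of 21 cells of replicate 1, at 108.7 CPM, and in 0 of 5 cells of replicate 2, and Elane in 4 of 21 and 1 of 5. Mpo stood there at 389.7 and 1577 CPM, and Cpa3 at 517 and 125.1 CPM. Over all ranges Cpa3 was found in 15 of 17 cells with Gata2 and in 15 of 27 without it in replicate 1, and in 6 of 6 cells with Gata2 and in 10 of 25 without it in replicate 2. Ms4a6c was found in 6 of 13 cells with Cebpe and in 22 of 31 without it in replicate 1, and in 7 of 16 cells with Cebpe and in 13 of 15 without it in replicate 2. These are counts of few cells and were not tested.

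Across cells, the Spearman correlation of Elane with Mpo was 0.88 and 0.61 over 44 and 31 cells, with Ly6c2 0.82 and 0.66 and with Cd34 -0.67 and -0.37. For Elane and Cebpa it was 0.26 and 0.12. The points share library and depth, and Elane helped to choose the cells.

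Cells with the same transcripts were found on the C1 chip, whose values are FPKM (fragments per kilobase of gene and per 1e6 fragments). Among C1 cells with at least 1000 genes above 1 FPKM, 9 held more than 1 FPKM of at least 2 rule genes, or 4.05% (Clopper-Pearson 95% interval 1.87% to 7.56%). These cells were unevenly spread over the library numbers in the C1 cell names. The highest share under a single library number was 3 of 11 cells, the next was 2 of 12, and most library numbers gave none. The interval takes the cells as independent and does not cover this spread. The C1 cells count as 1 sample, since no animal is named. The platform and the rule differ, so this share is not ranked against the 10x shares.

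The 9 C1 cells were of unequal strength. Elane was at 2747 to 15364 FPKM in 6 cells and at 183.8, 8.98 and 1.46 FPKM in the remaining 3. The 6 strong cells held Mpo at 5115 to 21625 FPKM, Ctsg at 542 to 2349 FPKM and Prtn3 at 926 to 3162 FPKM. Tcf7 was at 428, 169.1 and 64.7 FPKM in the 3 weaker cells and at 32.3 FPKM or below in the 6.

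Of the 30 leading genes, 29 were listed for the C1 cells, and all 29 exceeded 1 FPKM in a larger share of the 9 than of the other C1 cells. The same share over all genes was not computed, so nothing is read from this count. The 9 cells also had more detected genes, with a median of 5667 genes above 1 FPKM, against 4656 in the other C1 cells, and the part of this difference in the result was not tested. Igsf6, Hk3, Trem3 and Hp exceeded 1 FPKM in 8, 6, 6 and 6 of the 9 and in none of the others. Cebpe exceeded 1 FPKM in 5 of 9 cells, against 0.939% of the other C1 cells, and Mpo in 9 of 9 cells, against 87.3% of the other C1 cells. Il2ra did so in 0 of 9 cells, against 57.7% of the other C1 cells, and Kit in 5 of 9 cells, against 84.98% of the other C1 cells. Ltf, Camp and Ly6g were at 0 in all 9, and S100a8 exceeded 1 FPKM in 4 of them. Its values there were 1.85, 260.5, 2616 and 50511 FPKM, against at most 6.16 FPKM in the other C1 cells.

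The bulk libraries, which the rule did not use, allowed a test between sorted populations. A limma fit on log2(FPKM + 1) with population and library kit over all 12 libraries tested the 12112 genes that exceeded 1 FPKM in 2 or more libraries. Of these, 51 (0.421%) were higher and 32 (0.264%) lower in Flt3- ETP than in Flt3+ ETP at a Benjamini-Hochberg adjusted p under 0.05. Of the 30 leading genes 13 (43.3%) rose and none fell, and their median change was 1.19, against -0.15 over all tested genes. Among the genes called, Hp, Trem3, Igsf6 and Cebpe exceeded 1 FPKM in Flt3- ETP and total ETP only. They could enter the test only through those groups, so their rise was favoured by the filter and is a description. In bulk RNA, more cells of a type and more RNA per cell cannot be told apart.

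Elane measured 144.2 and 517 FPKM in Flt3- ETP and 1.52 and 4.50 FPKM in Flt3+ ETP, and rose by 6.20 ± 0.40 (log2 change ± SE, limma, adjusted p = 5.86e-05). Total ETP lay between them, at 45.3 and 38.8 FPKM. Ms4a3 measured 23.5 and 72.6 FPKM in Flt3- ETP and 1.99 and 0.472 FPKM in Flt3+ ETP, and rose by 4.34 ± 0.44 (limma, adjusted p = 0.000658). Prtn3 rose by 4.15 ± 0.33 (limma, adjusted p = 0.000124). For all 3 genes both Flt3- libraries lay above both Flt3+ libraries. The share of all genes set apart in this way was not computed, so nothing is read from it.

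Hp, Trem3 and Cebpe were among the leading genes called. Hp measured 12.2 and 8.88 FPKM in Flt3- ETP and 0.835 and 0.0920 FPKM in Flt3+ ETP, and rose by 3.01 ± 0.22 (limma, adjusted p = 7.84e-05). Trem3 measured 3.51 and 7.16 FPKM, against 0 and 0.197 FPKM, and rose by 2.47 ± 0.30. Cebpe measured 2.16 and 5.24 FPKM, against 0.0390 and 0.0330 FPKM, and rose by 2.10 ± 0.30 (limma, adjusted p = 0.00936). At such low FPKM the added 1 understates the change.

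Of the 14 primary granule genes 4 rose, Elane, Prtn3, Ctsg and Mpo, and of these Mpo had the smallest change. Mpo measured 435 and 699 FPKM in Flt3- ETP and 139.3 and 209.1 FPKM in Flt3+ ETP, and rose by 1.69 ± 0.25 (limma, adjusted p = 0.0103). Other leading genes called included Ly6c2 (3.17 ± 0.26), Ctsg (3.05 ± 0.38), Fcgr3 (2.63 ± 0.24), Igsf6 (2.14 ± 0.27), Anxa3 (1.85 ± 0.31), Ccl9 (1.46 ± 0.27), F630028O10Rik (1.32 ± 0.22) and Msrb1 (0.79 ± 0.15).

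The remaining 17 leading genes were not called. Cebpa measured 5.76 and 1.60 FPKM in Flt3- ETP and 2.08 and 0.312 FPKM in Flt3+ ETP, with overlapping groups (1.06 ± 0.32, limma, adjusted p = 0.167). Calr (0.36 ± 0.12) and Sdf2l1 (0.58 ± 0.31) were not called either, nor was any of the 14 genes of the secretory list or of the 11 monocyte genes tested, of 14 listed. Lmo2 measured 28.8 and 38.8 FPKM, against 32.6 and 69.4 FPKM (-0.50 ± 0.28).

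Of 14 listed late neutrophil genes 3 rose. They were S100a8 (4.13 ± 0.38, limma, adjusted p = 0.000327), S100a9 (2.48 ± 0.35, limma, adjusted p = 0.00796) and Fcgr3. S100a8 and S100a9 encode the calprotectin subunits. The list summed to 60.7 to 93.6 FPKM in Flt3- ETP, against 27.3 to 39.2 FPKM in Flt3+ ETP.

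Each ETP group divided by Flt3 has 1 NEBNext and 1 SMART-Seq library. The median difference of the 30 leading genes was 0.78 within NEBNext and 1.104 within SMART-Seq, and all 13 called genes were higher in Flt3- ETP within both kits. The fitted change rests on these differences within kits, so called genes were close to bound to share its direction. The same count over all called genes was not computed, and nothing is read from it. Leaving out Flt3- ETP replicate 1 left 8 of the 30 called. Leaving out Flt3+ ETP replicate 1 left 6, and leaving out its replicate 2 left 4. The lone library is then assumed to vary like the other groups. Without the kit term 4 were called, and with NEBNext libraries alone, 1 against 1, none.

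Markers of other granulated cells rose in the same comparison. Of 12 listed mast cell and basophil genes 6 rose and 4 did not enter the test, among them Cma1 (2.90 ± 0.24), Cpa3 (2.67 ± 0.21) and Mcpt8 (2.64 ± 0.31), and the list summed to 86.8 to 280.0 FPKM in Flt3- ETP, against 14.4 to 38.7 FPKM in Flt3+ ETP. Cma1 and Mcpt4, which rose here, had no UMI in the granulocyte-like 10x cells. The eosinophil genes Prg2 and Siglecf rose too, the only 2 of the 10 listed that entered the test. That list of 10 summed to 18.8 to 20.2 FPKM, against 5.57 to 6.36 FPKM. Prg2 exceeded 1 FPKM in Flt3- ETP alone, so it could enter the test only by being high there. Cma1, Hdc, Mcpt4 and Ms4a2 exceeded 1 FPKM in Flt3- ETP and total ETP only, so their rise was favoured by the filter. The part of mast cells, basophils and eosinophils in the result was not tested. Of 24 T-lineage genes only Tcf7 was called, and 6 of 24 G2/M genes fell.

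**Figure D5:**
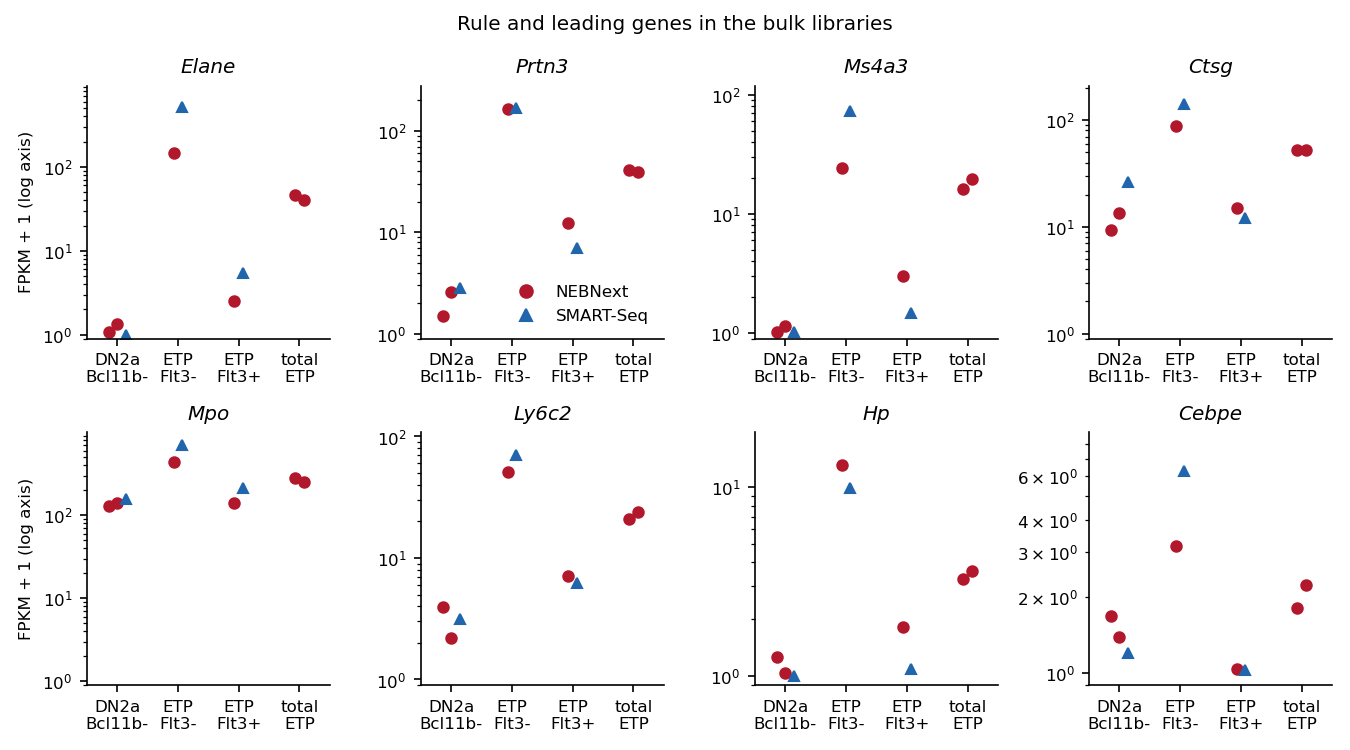
FPKM + 1 (log axis) of the 3 rule genes and of Ctsg, Mpo, Ly6c2, Hp and Cebpe in single bulk libraries of 4 populations, with shape and colour marking the library kit. For each gene both Flt3- ETP libraries lie above both Flt3+ ETP libraries and above all 3 Bcl11b- DN2a libraries.

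Bcl11b- DN2a cells were compared with the same Flt3- ETP libraries, which the comparisons therefore share. Of the 12112 genes 285 (2.35%) were lower and 1.62% higher in Bcl11b- DN2a, and of the 30 leading genes 19 (63.3%) fell and none rose (limma, Benjamini-Hochberg adjusted p under 0.05). Their median change was -1.30, against 0.12 over all tested genes. Among the genes called, Hp, Trem3, Igsf6, Cebpe, Hk3, Cebpa and Anxa3 exceeded 1 FPKM in ETP libraries only, as did the rule genes Elane and Ms4a3. They could enter the test only through ETP, so their fall was favoured by the filter.

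Elane measured 0.0740, 0.337 and 0 FPKM in the Bcl11b- DN2a libraries and 144.2 and 517 FPKM in Flt3- ETP, and fell by 7.81 ± 0.36 on the log2 scale (limma, adjusted p = 1.46e-06). Ms4a3 measured 0.0230, 0.140 and 0.0230 FPKM, against 23.5 and 72.6 FPKM, and fell by 5.31 ± 0.40. Hp measured 0.269, 0.0420 and 0 FPKM, against 12.2 and 8.88 FPKM, and fell by 3.43 ± 0.20. The 3 genes were at or near 0 in Bcl11b- DN2a.

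Ctsg and Mpo kept a measurable level. Ctsg measured 8.28, 12.5 and 25.3 FPKM in Bcl11b- DN2a and 87.5 and 138.9 FPKM in Flt3- ETP, and fell by 2.75 ± 0.35. Mpo measured 127.2, 138.1 and 153.99 FPKM, against 435 and 699 FPKM, and fell by 1.87 ± 0.23. In Bcl11b+ DN2a Mpo measured 12.9, 7.40 and 21.8 FPKM.

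Cebpa, at 0.257, 0.159 and 0 FPKM in Bcl11b- DN2a, fell by 1.996 ± 0.29 (limma, adjusted p = 0.00324), and Cebpe fell by 1.65 ± 0.28. Lmo2 measured 6.61, 7.97 and 5.21 FPKM, against 28.8 and 38.8 FPKM, and fell by 2.15 ± 0.25. Among those not called were Calr (0.03 ± 0.11) and Sdf2l1 (-0.22 ± 0.29). By list, 6 of 14 primary granule genes fell (Ctsg, Elane, Lyz2, Mpo, Nkg7 and Prtn3), as did 4 of 14 late neutrophil genes (Csf3r, Fcgr3, S100a8 and S100a9) and 5 of 14 listed monocyte genes.

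Of 12 listed mast cell and basophil genes 5 fell and Cpa3 rose (1.01 ± 0.19), and the list summed to 102.7 to 504 FPKM in Bcl11b- DN2a, against 86.8 to 280.0 FPKM in Flt3- ETP. Of 24 T-lineage genes 6 rose, and that list summed to 846 to 1115 FPKM, against 398 to 555 FPKM. The part of such cells in the result was not tested. The median difference of the leading genes was -1.05 within NEBNext and -1.35 within SMART-Seq, and all 19 called genes were lower within both kits. Here too the fitted change rests on the differences within kits, so nothing is read from that count. Without the kit term 6 were called.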

How the data were processed

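UMI counts per gene and barcode of the 10x libraries were deposited as filtered matrices and were made with Cell Ranger 2.0 on mm10, per the submitters' processing notes. The deposited bulk FPKM values come from HOMER exon counts, per the file headers, and those of the C1 cells are FPKM as deposited. The submitters' processing notes also name STAR 2.4.0, RSEM 1.2.25, SAMtools and edgeR 3.6.8, with no roles given. The 10x libraries held 43734920 and 55522900 UMIs in 5006 and 8867 barcodes. Of these 27 and 427 were removed for under 1000 genes and 101 and 6 more for mitochondrial UMIs. Steps in the bulk FPKM values give between 21207450 and 38538607 reads per library within gene models. Whether bulk counting used strand is not given in the sources used here, and 4 of 33 rule and leading genes overlap another coding gene.

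UMIs were summed per library and compared as CPM with 10 CPM added, without a test. Cells were also thinned to 4000 UMIs. Bulk FPKM were tested with limma 3.58.1 (R 4.3.3, trend, two-sided, Benjamini-Hochberg over all tested genes) for genes above 1 FPKM in at least 2 libraries, with population and kit as terms, and the script was tested on simulated data. Other steps used Python 3.11.15, numpy 2.4.6, pandas 2.3.3 and scipy 1.17.1. Named genes are the 30 leading and 15 trailing genes, the label and gate genes and members of the lists. The members and the lists were chosen with earlier results of these data known. Plppr3, Cfd and the ranges of rule UMIs were chosen after their values were seen. Promoter sequences are from RefSeq (GRCm38.p6), and 22 of 30 leading genes matched. Of the genes counted, 1 leading gene and 2 list genes are not reported here by name.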

Additional observations from a re-analysis of the deposited data

How the results depend on the processing

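The share of chosen cells in replicate 1, 0.902%, became 0.636% with the rule at 10 UMIs, 0.540% after thinning to 4000 UMIs and 0.652% without the top 2.5% of cells by UMIs. With 50 CPM added, the genes at least 4-fold higher numbered 8 in place of 26 and those lower 6 in place of 29, with 11 T-lineage genes lower, 4 secretory genes higher and 1 monocyte gene higher. With 2 CPM added they numbered 71 and 97. With the rule at 16 UMIs, an alternative chosen after seeing the data, 40 genes were at least 4-fold higher. Leaving out 1 of the 10x libraries gave 35 to 51 genes higher, 30 to 71 lower and 0 to 1 S-phase gene higher. Against cells with Flt3 but no Il2ra, 6 T-lineage genes were lower and the Bcl11b log2 ratio turned to 0.11.

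The 13 leading genes called higher in Flt3- than in Flt3+ ETP became 6 with no filter on low values, 4 without the kit term, 0 with NEBNext libraries only (1 against 1), 20 with the compared populations only (1 then lower), and 4 to 15 with 1 library left out. The 19 called lower in Bcl11b- DN2a became 12 with no filter, 6 without the kit term and 15 to 17 with 1 library left out. With the replicate number and kit as a replicate block, 21 were higher in Flt3- ETP and 21 lower in Bcl11b- DN2a, and none of the called genes was lost. Same-numbered Flt3- and Flt3+ ETP libraries had deviations from the fit correlated at 0.10. In groups of 2 libraries the deviations mirror each other, so both pairs give this same value. Bcl11b- DN2a replicates 1 and 2 correlated at 0.19 and 0.58 with the same-numbered Flt3- ETP libraries. Such pairs are too few to take the numbers as pairs. The causes of these changes were not tested. Groups of 2 libraries and few chosen cells limit the precision.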
